A study of Mus musculus with 6 samples.

Results

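The hippocampal data were read here for 10 genes that encode subunits of voltage-gated calcium channels: *Cacna1a*, *Cacna1b*, *Cacna1c*, *Cacna1d*, *Cacna1e*, *Cacna1g*, *Cacna1h*, *Cacna1i*, *Cacna2d1* and *Cacna2d3*. The genes were chosen by symbol, and all 10 were present among the 14477 genes of the deposited expression matrix. The study sequenced total RNA from the hippocampus of untreated mice to ask which genes differ when *Phf21b*, a gene for a plant homeodomain finger protein that reads histone marks, is depleted. There were 3 Phf21bΔ4/Δ4 mice, called replicates 2, 3 and 6, and 3 Phf21b+/+ mice, called replicates 5, 7 and 8, with 1 library each. Phf21bΔ4/Δ4 animals carry a whole-body CRISPR/Cas9 deletion in exon 4 of *Phf21b*, which lowers expression and does not abolish it, on a C57BL/6J background that the Phf21b+/+ controls share. The study used young adult male and female littermates in general, and the age, sex, litter and dissection day of each mouse behind these libraries are not given in the sources used here, nor is it stated whether a library pooled tissue from several animals.

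Voltage-gated calcium channels open when the membrane depolarises and let calcium into the cell, where it triggers transmitter release, shapes firing and starts signalling to the nucleus. The pore is the α1 subunit, which sets the channel type. The Cav2 family carries the P/Q-, N- and R-type currents and serves presynaptic release and dendritic calcium entry. The Cav1 family carries the L-type current, known for coupling activity to gene expression, and the Cav3 family carries the low-threshold T-type current, known for burst firing. The α2δ subunits are extracellular auxiliary proteins that bring channels to the surface and to synapses. The one encoded by *Cacna2d1* is known to bind gabapentinoid drugs.

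Libraries held between 20495605 and 24881257 reads on the listed genes, recovered from the steps of the deposited log2 CPM, in which CPM is a read count scaled to the size of its library. The targeted gene *Phf21b* was at 2.15, 3.57 and 3.87 CPM in Phf21bΔ4/Δ4 replicates 2, 3 and 6 and at 6.50, 5.23 and 6.47 CPM in Phf21b+/+ replicates 5, 7 and 8. Every mutant was below every control, with a log2 fold change of −0.96 ± 0.26 (SE; limma's moderated test, FDR = 0.141). FDR here is the p-value after Benjamini-Hochberg adjustment over all listed genes, and a gene was called changed at an FDR under 0.1 with a fold change above 1.3. Some libraries stood apart. Phf21bΔ4/Δ4 replicates 2 and 3 had summed levels of 8 dentate granule cell markers of 284 and 265 CPM, against 718 CPM in replicate 6 and 773 to 896 CPM in the controls. Phf21b+/+ replicate 7 held 15515 CPM of 6 choroid plexus markers, against 22.6 to 962 CPM in the other 5 libraries. The differences of the members without each of mutant 2, mutant 3 and control 7 are given after the marker lists.

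Promoter sequences are shown for *Cacna2d3*, the member that was called, for *Cacna1i*, the member with the highest fold change, and for *Cacna2d1*, the other α2δ member. They are RefSeq windows of the GRCm38.p6 build, from 250 bases before to 50 bases after an annotated start, printed 5′ to 3′ on the strand of the gene. Such windows were at hand for 7 of the 10 members and were not at hand for *Cacna1a*, *Cacna1g* and *Cacna1h*. Capitals mark the short core of the cAMP response element, TGACG or its reverse complement CGTCA, the motif known to be bound by CREB. The windows lie at chr14:29721815-29722114 on the minus strand (*Cacna2d3*), chr15:80286988-80287287 on the plus strand (*Cacna1i*) and chr5:15934441-15934740 on the plus strand (*Cacna2d1*).
Cacna2d3: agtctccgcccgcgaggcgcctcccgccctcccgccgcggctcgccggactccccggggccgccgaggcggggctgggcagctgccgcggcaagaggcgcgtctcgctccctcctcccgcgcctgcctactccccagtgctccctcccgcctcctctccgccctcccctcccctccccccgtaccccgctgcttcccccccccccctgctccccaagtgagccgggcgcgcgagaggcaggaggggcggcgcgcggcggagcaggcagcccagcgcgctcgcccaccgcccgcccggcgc
Cacna1i: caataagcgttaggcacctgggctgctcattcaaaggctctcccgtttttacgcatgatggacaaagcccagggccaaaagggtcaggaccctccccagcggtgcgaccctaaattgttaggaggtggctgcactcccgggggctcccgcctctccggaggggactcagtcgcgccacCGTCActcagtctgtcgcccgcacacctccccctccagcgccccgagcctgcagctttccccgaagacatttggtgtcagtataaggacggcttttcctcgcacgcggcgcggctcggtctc
Cacna2d1: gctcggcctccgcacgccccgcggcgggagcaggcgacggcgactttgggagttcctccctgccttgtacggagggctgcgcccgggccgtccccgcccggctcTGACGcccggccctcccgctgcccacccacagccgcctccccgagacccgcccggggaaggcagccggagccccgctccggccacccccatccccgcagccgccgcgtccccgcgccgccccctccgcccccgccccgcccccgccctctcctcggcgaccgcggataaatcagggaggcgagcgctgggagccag
The *Cacna2d3* window holds no TGACG on either strand, while the *Cacna1i* window holds one 72 bases and the *Cacna2d1* window one 146 bases before the start. Of the 10 windows of the 7 members, 4 held the core (1 each for *Cacna1b*, *Cacna1c*, *Cacna1i* and *Cacna2d1*), and none held the full element TGACGTCA. Of all 32851 mouse windows, 20.8% held the core and 1.79% the full element. GC content was 81.3% for *Cacna2d3*, 80.0% for *Cacna2d1* and 62.7% for *Cacna1i*, against a median of 52.7% over all windows. The *Cacna2d3* and *Cacna2d1* windows held 41 and 42 CpG dinucleotides against a median of 7. A match of these letters is a description of the sequence and not evidence of binding.

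Of the 10 subunit genes, *Cacna2d3* rose in Phf21bΔ4/Δ4 hippocampi and none fell. The 1 called member compares with 1.22% of all genes called in either direction and 0.553% called higher. For 6 members (*Cacna1a*, *Cacna1b*, *Cacna1e*, *Cacna1i*, *Cacna2d1* and *Cacna2d3*) every mutant mouse was above every control mouse, and for no member was the reverse seen. Among all genes 31.0% had genotypes that did not overlap and 15.0% had every mutant above every control, and 16.0% had every mutant below every control. The same 6 members had an unadjusted p under 0.05, as did 23.6% of all genes. The difference was above 0 for 9 of 10 members, with a median log2 fold change of 0.41, against −0.02 over all genes.

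The members are long transcripts, and long genes as a class sat higher in the mutants. Of 2135 genes with at least the 8720 bp of exon sequence of the shortest member, 62.4% had a difference above 0, against 47.6% of all genes. Their median log2 fold change was 0.09, and 23.9% of them had every mutant above every control. When each library was corrected for exon length, the median of the members was 0.30 and *Cacna2d3* was the member called. In that fit the log2 fold changes were 0.31 for *Cacna1a*, 0.63 for *Cacna1b*, 0.30 for *Cacna1e*, 0.08 for *Cacna1c* and 0.07 for *Cacna1d*. They were 0.26 for *Cacna1g*, −0.19 for *Cacna1h*, 1.15 for *Cacna1i*, 0.30 for *Cacna2d1* and 0.77 for *Cacna2d3*. Each was below its value without the correction. The part of transcript length in the members' values was not tested beyond this fit.

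**Figure D1:**
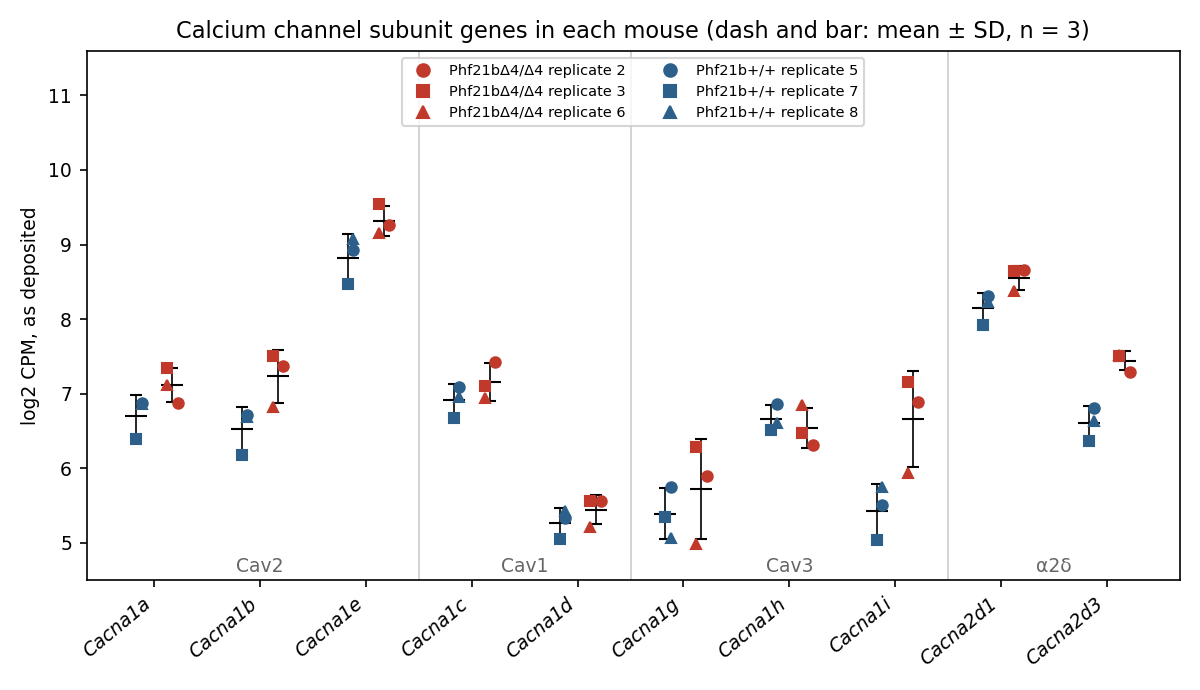
Deposited log2 CPM (y axis) of the 10 subunit genes (x axis, grouped by class) in each mouse, with dash and bar for mean ± SD (n = 3 mice per genotype). The 3 mutant points of *Cacna1a*, *Cacna1b*, *Cacna1e*, *Cacna1i*, *Cacna2d1* and *Cacna2d3* lie above the 3 control points, and those of the other 4 genes overlap.

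The Cav2 pore genes were all higher in each mutant mouse than in any control, by 1.33- to 1.63-fold, and none passed the FDR threshold. *Cacna1b* encodes the N-type pore of presynaptic terminals and lies at chr2:24603887-24763152 on the minus strand. It was at 165, 181 and 113 CPM in mutants 2, 3 and 6 and at 105, 72.2 and 103 CPM in controls 5, 7 and 8. Mutants 2 and 3 were well above the controls, while mutant 6 exceeded the highest control by a small margin. Mean levels were 153 ± 35.3 and 93.2 ± 18.3 CPM (SD, n = 3 per genotype), a log2 fold change of 0.71 ± 0.22 (SE; limma, FDR = 0.154).

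*Cacna1e* encodes the R-type pore found in dendrites and spines (chr1:154390731-154884501, minus strand), and it was the member with the most reads, from 8427 to 15666 per mouse. Its level was 612, 746 and 571 CPM in mutants 2, 3 and 6 against 486, 356 and 539 CPM in controls 5, 7 and 8. The groups did not overlap, and the nearest pair, mutant 6 and control 8, was close. The log2 fold change was 0.49 ± 0.18 (SE; limma, FDR = 0.179). *Cacna1a* encodes the P/Q-type pore that drives fast transmitter release (chr8:84388440-84640246, plus strand). It was at 118, 162 and 139 CPM in mutants 2, 3 and 6 and at 117, 83.6 and 116 CPM in controls 5, 7 and 8. Mutant 2 and controls 5 and 8 were at nearly the same level, so that the separation of the groups rests on 118 against 117 CPM. The log2 fold change was 0.41 ± 0.17 (SE; limma, FDR = 0.210).

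The 2 Cav1 pore genes, which encode the L-type channels of neuronal cell bodies and dendrites, had overlapping genotypes. *Cacna1c* (chr6:118587240-119196418, minus strand) was at 172, 137 and 122 CPM in mutants 2, 3 and 6 and at 136, 102 and 124 CPM in controls 5, 7 and 8. Mutant 2 stood above the others, and mutant 6 was below 2 of the controls. Its log2 fold change was 0.25, with a 95% interval from −0.13 to 0.62 (limma, FDR = 0.360). *Cacna1d* (chr14:30039939-30491455, minus strand) was at 47.0, 47.0 and 37.1 CPM in mutants 2, 3 and 6 against 40.2, 33.0 and 43.0 CPM in controls 5, 7 and 8. Mutant 6 lay within the control range. The log2 fold change was 0.17, with a 95% interval from −0.16 to 0.51 (limma, FDR = 0.455). These intervals leave room for a rise of 1.54-fold in *Cacna1c* and 1.42-fold in *Cacna1d* and for a small fall in either. *Cacna1c* shares its locus with the listed gene *Dcp1b*, and *Cacna1d* with *Chdh* and *Dcp1a*. The α2δ gene *Cacna2d3* overlaps 7 annotated genes, 6 of them on the opposite strand, and none of these is in the matrix. Whether the counting used strand is not given in the sources used here, nor how reads in overlapping stretches were assigned.

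The Cav3 pore genes differed from each other. *Cacna1i* had the highest fold change of the 10 members with all 6 mice, *Cacna1g* varied widely between mutants, and *Cacna1h* was the member with a mean below that of the controls. *Cacna1i* encodes the slowest of the T-type pores (chr15:80287238-80398279, plus strand). It was at 118, 143 and 61.0 CPM in mutants 2, 3 and 6 and at 45.4, 32.8 and 53.6 CPM in controls 5, 7 and 8. Mutants 2 and 3 were far above every control, whereas mutant 6 was just above control 8. The mean was 107 ± 41.9 CPM in mutants and 43.9 ± 10.5 CPM in controls (SD, n = 3 per genotype), a 2.34-fold difference with a 95% interval from 1.35 to 4.06. The FDR was 0.142 with limma. *Cacna1i* and *Phf21b* lie on the same chromosome, 4.39 Mb apart.

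*Cacna1g* encodes a T-type pore known from thalamic relay neurons (chr11:94408391-94474198, minus strand). Its level was 59.4, 78.2 and 31.6 CPM in mutants 2, 3 and 6 and 53.8, 40.7 and 33.4 CPM in controls 5, 7 and 8. The lowest and the highest of the 6 mice were both mutants. The log2 fold change was 0.34, with a 95% interval from −0.48 to 1.15 (limma, FDR = 0.549). *Cacna1h* encodes the remaining T-type pore (chr17:25374285-25433783, minus strand). It was at 79.4, 88.7 and 115 CPM in mutants 2, 3 and 6 and at 117, 91.2 and 97.0 CPM in controls 5, 7 and 8. Mutants 2 and 3 were below every control and mutant 6 was among them, which is the opposite order to that of *Cacna1i*. The log2 fold change was −0.12, with a 95% interval from −0.49 to 0.26 (limma, FDR = 0.651).

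Both α2δ members were higher in every mutant mouse, and *Cacna2d3* passed the test. *Cacna2d3* (chr14:28904943-29721864, minus strand) encodes an α2δ subunit known for its part in synapse formation and in pain and hearing pathways. It was at 157, 182 and 183 CPM in mutants 2, 3 and 6 and at 112, 82.2 and 99.5 CPM in controls 5, 7 and 8. All 3 mutants were close together, replicate 6 included, and all were well above the highest control. Means were 174 ± 14.7 and 97.9 ± 14.95 CPM (SD, n = 3 per genotype), a 1.79-fold difference with a 95% interval from 1.44 to 2.21. The moderated test of limma gave an unadjusted p of 0.000404 and an FDR of 0.0696. The call was lost when any mouse but mutant 6 was left out (FDR from 0.113 to 0.267) and in a fit without a variance trend (FDR = 0.129). *Cacna2d3* and *Cacna1d* are neighbours on the same strand with a gap of 318 kb, and the values of *Cacna1d* overlapped between genotypes. In hippocampal tissue, fewer cells of a type and less RNA per cell cannot be told apart, in either direction.

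*Cacna2d1* (chr5:15934691-16374511, plus strand) encodes the α2δ subunit best known as the receptor of gabapentin. It was at 403, 399 and 331 CPM in mutants 2, 3 and 6 and at 316, 242 and 299 CPM in controls 5, 7 and 8. Mutant 6 was nearer to control 5 than to the other mutants, and the groups did not overlap. The log2 fold change was 0.41 ± 0.13 (SE; limma, FDR = 0.165). The exact two-sided permutation test over 3 and 3 mice has 0.1 as its smallest possible p, and it gave 0.1 for the 6 members without overlap. It gave 0.4 for *Cacna1c*, 0.3 for *Cacna1d* and 0.5 for *Cacna1g* and *Cacna1h*.

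**Figure D2:**
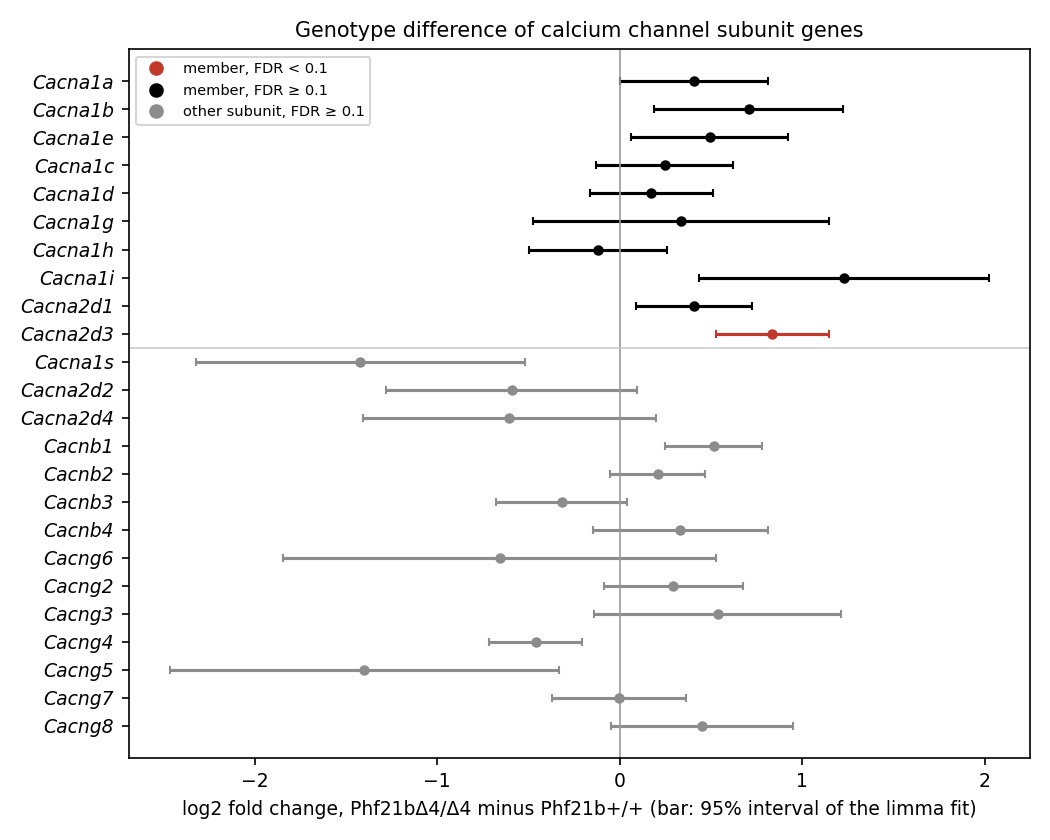
Log2 fold change (x axis, Phf21bΔ4/Δ4 minus Phf21b+/+) with 95% intervals from limma for the 10 members and 14 other calcium channel subunit genes (y axis). The interval of *Cacna2d3* runs from 0.53 to 1.15 and is the one drawn in red for an FDR under 0.1, while those of *Cacna1c*, *Cacna1d*, *Cacna1g* and *Cacna1h* cross 0.

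The profile of *Cacna2d3* over the 6 mice was most like those of *Ext1*, *Mal2* and *Rasl11b* among the genes outside the lists. Likeness was measured as the root mean square difference of log2 CPM after each gene was centred on its own mean, and it was 0.08, 0.09 and 0.09. These genes had log2 fold changes of 0.70, 0.72 and 0.77, with FDR values of 0.0724, 0.0669 and 0.0576 (limma). They were picked for this likeness, so their direction follows from the choice.

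Levels can be compared between genes only per length, and per kilobase of exon *Cacna2d1* and *Cacna1e* had the highest levels in control hippocampi. *Cacna2d1* was at 23.0 ± 3.12 and *Cacna1e* at 18.2 ± 3.74 CPM per kb (SD, n = 3), and their control mice overlapped. *Cacna2d3* followed at 11.2 ± 1.71 CPM per kb, below every control value of *Cacna1e*. *Cacna1h*, *Cacna1b* and *Cacna1a* stood at 10.4, 9.38 and 9.23 CPM per kb, and neighbours in this order from *Cacna2d3* to *Cacna1a* overlapped. A step separated *Cacna1a* from *Cacna1c* at 5.71 CPM per kb. *Cacna1i* at 4.45, *Cacna1g* at 4.21 and *Cacna1d* at 3.07 CPM per kb closed the order, each overlapping its neighbour. In mutant hippocampi *Cacna2d3* averaged 19.95 CPM per kb and *Cacna1i* 10.9 CPM per kb, the latter above *Cacna1h* at 9.65 CPM per kb. Mutants 2 and 3 had *Cacna1i* above *Cacna1h*, and mutant 6 had the reverse, at 6.18 and 11.7 CPM per kb. With the length of the longest transcript in place of the union of exons, *Cacna2d3* in controls overlapped *Cacna1e* and *Cacna1a* came before *Cacna1h*. By that length *Cacna1b* and *Cacna1c* overlapped in controls, at 9.58 and 9.19 CPM per kb, and *Cacna1g* came before *Cacna1i*. The mutant mean of *Cacna1i* was then 10.96 CPM per kb, below that of *Cacna1h* at 11.45 CPM per kb.

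Shares within a class compare genes inside each mouse. *Cacna1i* made up 46.1%, 46.3% and 29.4% of Cav3 reads per kb in mutants 2, 3 and 6 and 21.1%, 19.95% and 29.1% in controls 5, 7 and 8. The groups did not overlap, although mutant 6 and control 8 differed by less than 1 percentage point. *Cacna1h* made up 31.3%, 29.1% and 55.8% in the mutants and 54.7%, 56.0% and 53.2% in the controls. Mutant 6 was within the control range and the other 2 mutants were far below it. *Cacna1g* averaged 20.7% in mutants and 22.0% in controls, with overlap.

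*Cacna2d3* made up 35.7%, 39.4% and 44.0% of the reads per kb of the 2 α2δ members in mutants 2, 3 and 6 and 33.6%, 32.6% and 32.2% in controls 5, 7 and 8. The controls lay within a narrow band, and each mutant was above it. By contrast, the Cav2 and Cav1 classes kept overlapping shares. *Cacna1e* averaged 48.1% of Cav2 in mutants and 49.4% in controls, *Cacna1b* 28.8% and 25.4%, and *Cacna1a* 23.1% and 25.1%. *Cacna1c* averaged 66.1% of Cav1 in mutants and 65.0% in controls. Shares are descriptions, and their differences were not tested beyond overlap.

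**Figure D3:**
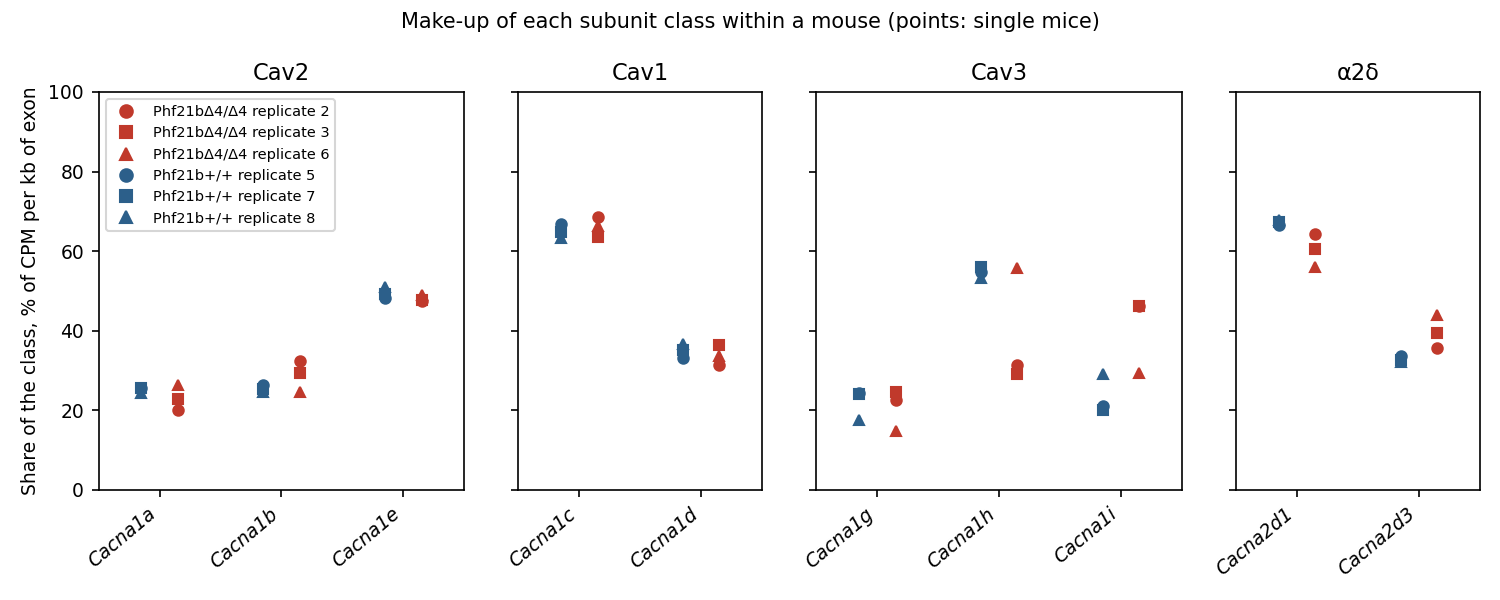
Share of each gene in its subunit class (y axis, % of CPM per kb of exon) in each of the 6 mice, with 1 panel per class. In the Cav3 panel mutants 2 and 3 show *Cacna1i* at 46.1% and 46.3% and *Cacna1h* at 31.3% and 29.1%, while mutant 6 has *Cacna1h* at 55.8%, within the control range, and *Cacna1i* at 29.4%, just above control 8 at 29.1%.

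Among the other genes of the pathway, 39 of 44 on 4 lists were present in the matrix and none was called by limma or by voom on the recovered reads. At an unadjusted p under 0.05 there were 9, against 23.6% of all genes. The genotypes did not overlap for 7 with higher and 3 with lower mutant values, against 15.0% and 16.0% of all genes, so these shares were near or below those of all genes. Of the other pore, α2δ, β and γ subunits, 8 of 10 were listed, with a median log2 fold change of −0.45. The difference was above 0 for 3 and below 0 for 5. *Cacnb1*, a cytoplasmic β subunit that brings channels to the membrane, had every mutant above every control, at 109 ± 7.09 against 76.9 ± 9.68 CPM (SD, n = 3 per genotype; limma, FDR = 0.127). *Cacnb4*, another β subunit gene, was at 254 ± 73.2 and 197 ± 23.0 CPM (limma, FDR = 0.336). *Cacnb3* was at 128 ± 16.2 and 160.0 ± 27.4 CPM (limma, FDR = 0.245). *Cacnb2* was at 77.4 ± 9.08 and 66.8 ± 5.20 CPM (limma, FDR = 0.284). The remaining listed genes, named outside the rule given below, were lower on average in mutants. The α2δ genes *Cacna2d2* and *Cacna2d4* had log2 fold changes of −0.59 and −0.60 (limma, FDR = 0.258 and 0.302). *Cacna1s*, at 0.51 and 1.41 CPM, had every mutant below every control, with −1.42, and *Cacng6* had −0.66 (limma, FDR = 0.141 and 0.427).

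All 6 γ subunit genes known as auxiliary proteins of AMPA receptors were listed, and 3 had a difference above 0. *Cacng8* was at 94.9 ± 26.8 CPM in mutants and 67.7 ± 7.63 CPM in controls (limma, FDR = 0.238). *Cacng7* was at 46.9 ± 9.58 and 46.5 ± 4.62 CPM. *Cacng2*, the gene of stargazin, was at 43.5 ± 8.11 and 35.2 ± 4.41 CPM, and *Cacng3* at 29.5 ± 11.98 and 19.4 ± 2.60 CPM. The genotypes did not overlap, with lower mutant values, for the remaining pair, *Cacng4* and *Cacng5*, chosen after their values were seen. Their log2 fold changes were −0.46 and −1.40 (limma, FDR = 0.133 and 0.160).

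Of the channel partners and regulators, 15 of 18 were listed and 11 had a difference above 0, with a median log2 fold change of 0.11. *Rims1*, a scaffold of the presynaptic release site, was at 326 ± 52.1 CPM in mutants and 285 ± 48.9 CPM in controls. All 10 genes of calcium-coupled potassium and intracellular calcium release channels were listed, and 8 had a difference above 0 with a median of 0.28. *Itpr1*, an inositol trisphosphate receptor gene, was at 917 ± 113 and 749 ± 25.2 CPM (limma, FDR = 0.210). *Ryr2* was at 547 ± 40.4 and 440 ± 91.4 CPM, *Kcnma1* at 416 ± 117 and 360 ± 63.7 CPM, and *Ryr3* at 115 ± 15.8 and 73.9 ± 13.04 CPM (limma, FDR = 0.265, 0.634 and 0.135).

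The dentate granule markers of mutant replicate 6 summed to 718 CPM, below every control and well above mutants 2 and 3. Mutant 6 also stood apart from mutants 2 and 3 in several members. It was lower than the mean of the other 2 mutants by log2 values of −1.11 for *Cacna1g*, −1.09 for *Cacna1i* and −0.61 for *Cacna1b*, and higher by 0.45 for *Cacna1h*. For *Cacna2d3* the difference was 0.11 and for *Cacna1a* 0.01. Without replicate 6, 5 members were called higher by limma: *Cacna1i* (log2 fold change 1.59, FDR = 0.0175), *Cacna1b* (0.91, FDR = 0.0351), *Cacna2d3* (0.80, FDR = 0.0314), *Cacna2d1* (0.50, FDR = 0.0599) and *Cacna1g* (0.70, FDR = 0.0892). That fit called 19.5% of all genes and 10.3% as higher, so the added calls came with a general rise in calls. Of the 8 dentate granule markers, 6 had every mutant below every control, and *Pdzd2* was called lower at a log2 fold change of −0.70. The part of the dentate markers in the values of the channel genes was not tested.

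**Figure D4:**
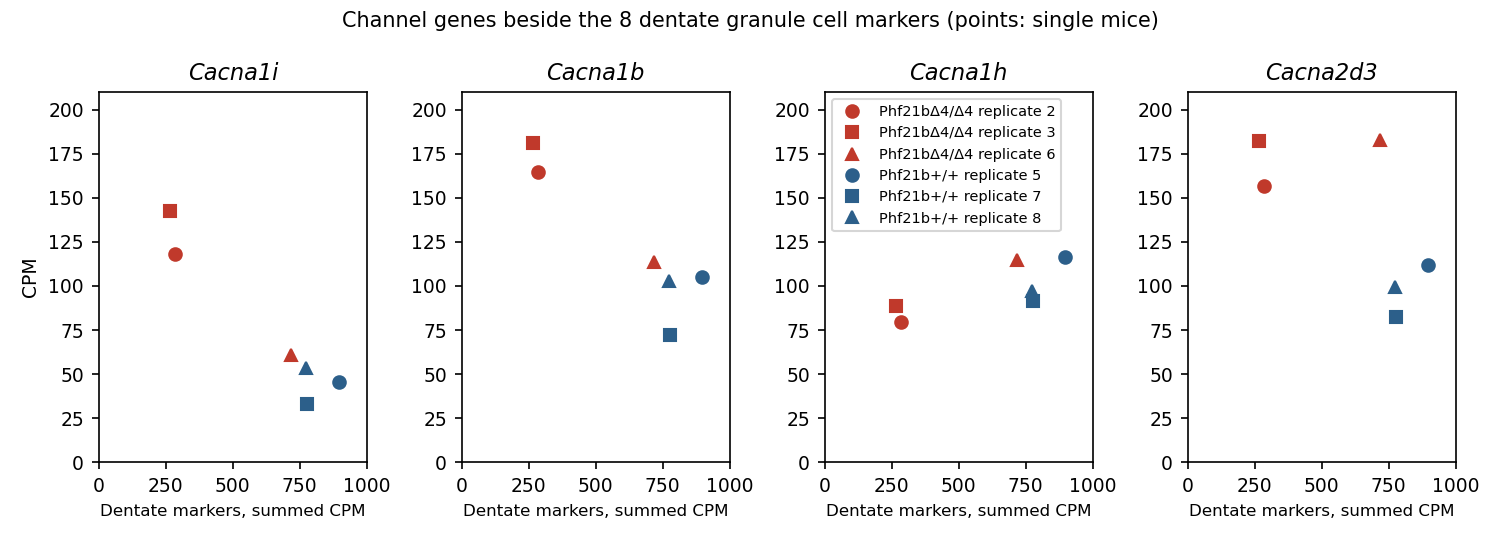
CPM of *Cacna1i*, *Cacna1b*, *Cacna1h* and *Cacna2d3* (y axes) against the summed CPM of 8 dentate granule cell markers (x axes), with 1 point per mouse. Mutant 6, at 718 CPM of markers, lies near the controls for *Cacna1i* (61.0 CPM) and *Cacna1h* (115 CPM) and has a *Cacna2d3* level of 183 CPM.

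Other marker lists also moved with genotype. Of 7 listed CA1 markers all had a difference above 0, but only 3 had every mutant above every control. The 2 called higher were *Fibcd1* and *Mpped1*, and the 7 markers summed to 899 to 1072 CPM in mutants and 376 to 412 CPM in controls. Of 9 interneuron markers 7 had every mutant above every control and *Gad2* was called higher, with sums of 658 to 835 and 461 to 508 CPM. Medial habenula markers were called lower for 10 of 12, with sums of 52.3 to 172 and 292 to 353 CPM, and *Chat* was at or near 0 in every mutant. Thalamus markers, 9 listed, summed to 231 to 343 CPM in mutants and 523 to 806 CPM in controls, with *Tcf7l2* and *Zic1* called lower. *Aqp4* of the astrocyte list and *Otx2* of the choroid plexus list were called lower, and no gene was called on the lists of principal neurons (6 listed), CA2 and CA3 (7), oligodendrocytes (6) and microglia (6). The 6 principal neuron markers summed to 2936 to 3816 CPM in mutants and 2480 to 3349 CPM in controls. The part of these differences in tissue make-up in the channel gene values was not tested.

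Control replicate 7 was the lowest control for 9 of the 10 members, and it was the lowest control for 43.6% of all genes and 59.5% of genes as long as the members. Without it the median log2 fold change of the members was 0.30 and limma called no member (3 had an unadjusted p under 0.05), in a fit that called 0.0967% of all genes. On the log2 scale, without control 7, the difference was 0.25 for *Cacna1a*, 0.53 for *Cacna1b*, 0.32 for *Cacna1e*, 0.13 for *Cacna1c*, 0.06 for *Cacna1d*, 0.32 for *Cacna1g*, −0.19 for *Cacna1h*, 1.03 for *Cacna1i* and 0.29 for *Cacna2d1*. These were smaller than with all 6 mice for each of these genes but *Cacna1h*, and by over 1.5 times for *Cacna1a*, *Cacna1e*, *Cacna1c* and *Cacna1d*. Without mutant 2, *Cacna1c* was at 0.11, *Cacna1d* at 0.12 and *Cacna1h* at −0.003. Without mutant 3, *Cacna1g* was at 0.05, *Cacna1d* at 0.12 and *Cacna1i* at 0.98. Without mutants 2 and 3 in turn, *Cacna1b* was at 0.64 and 0.57, *Cacna1e* at 0.53 and 0.38, *Cacna1a* at 0.52 and 0.29, and *Cacna2d1* at 0.36 and 0.36. Leaving out control 8 took *Cacna1g* to 0.17 and leaving out control 5 took *Cacna1h* to −0.01. The difference in *Cacna2d3* stayed between 0.72 and 0.94 on the log2 scale whichever mouse was left out. Its FDR without mutant 6 was 0.0314, and the lost calls were at FDR values of 0.199 and 0.168 without mutants 2 and 3 and of 0.113, 0.242 and 0.267 without controls 5, 7 and 8 (limma). *Cacna1h* stayed below 0 and the other 9 members above 0 in each of these fits.

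**Figure D5:**
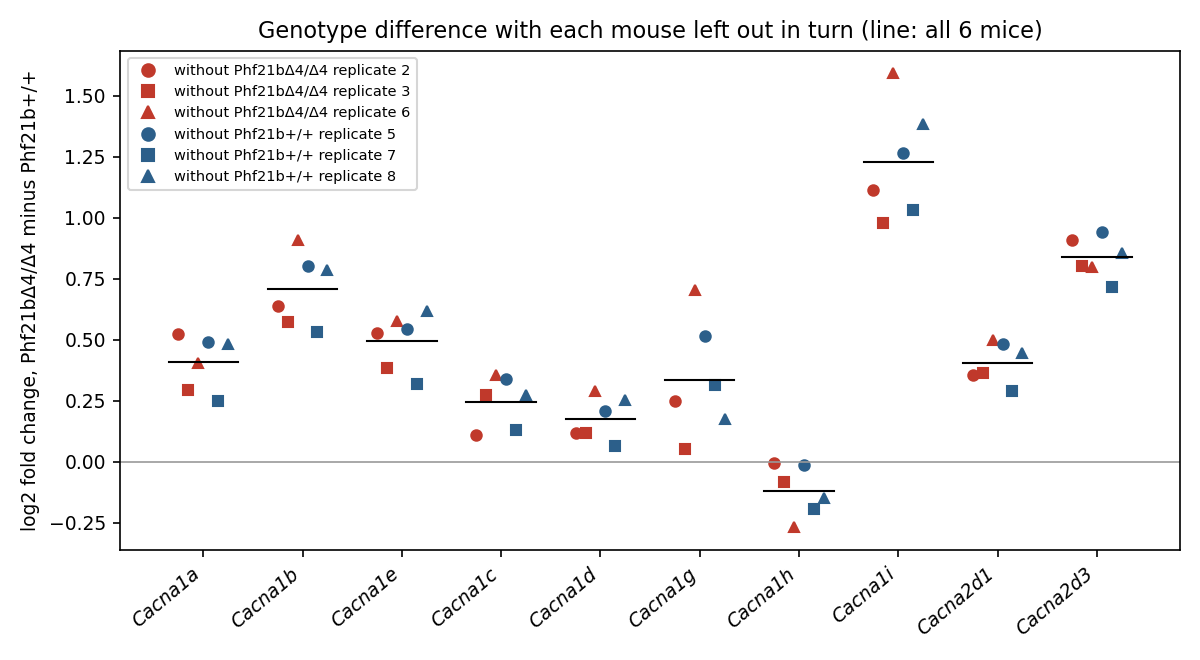
Log2 fold change (y axis, Phf21bΔ4/Δ4 minus Phf21b+/+) of the 10 members (x axis) with each mouse left out in turn (points) and with all 6 mice (line). *Cacna2d3* stays between 0.72 and 0.94, while *Cacna1i* ranges from 0.98 to 1.59 and is highest without mutant 6.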

How the data were processed

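RNA was extracted from hippocampi of 3 Phf21bΔ4/Δ4 and 3 Phf21b+/+ mice, and libraries were made with a ribosomal RNA depletion kit. Per the submitters' processing notes, reads were handled with Trimmomatic 0.39, STAR 2.7.3a, the GRCm38 build and featureCounts of Subread 1.6.4, and edgeR; the authors deposited log2 CPM per gene for all 6 libraries in 1 matrix, on effective library sizes with a prior of about 0.1 reads. Whole reads were recovered from the steps of these log2 values (100.0% of values within 0.1 reads of a whole number), and 3 reads amount to 0.127 to 0.143 CPM. No column lacked a sample (0 unmapped).

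The deposited log2 values were fitted with limma 3.58.1 in R 4.3.3 (lmFit, eBayes with a mean-variance trend, two-sided), with Benjamini-Hochberg adjustment over 14477 genes. A gene was called at FDR under 0.1 and fold change above 1.3, the thresholds of the study, which used a count model. The deposited values are log2 CPM, so limma took the place of that model. No further low-level filter was applied. The study reports keeping genes with 1 CPM or more in at least 2 samples, and 14439 of the 14477 listed genes met this. The study used littermates in general, and nothing in the sources ties these libraries to litters or dissection groups. The p-values measure only the spread between these samples. Gene positions and exon lengths came from a GENCODE annotation of GRCm38, which matched 14277 genes (98.6%), and promoter windows from RefSeq. Other tools were Python 3.11.15, pandas 2.3.3, NumPy 2.4.6 and matplotlib 3.10.9.

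The members, gene lists and tests were chosen with earlier results of these data known. Named were the 10 members, *Phf21b*, called genes of the pathway lists and up to 4 others per list by mean CPM, up to 4 called markers per list by size, and the 3 nearest genes to a called member. Names outside this rule are stated as such. Not every gene that this rule names is reported here. On simulated data for this comparison over 14477 genes, 79 of 100 genes changed by 1 on the log2 scale were called. Of 100 genes changed by 2, 96 were called. There were 20 false calls with changed genes present, and none when no gene was changed. In the real data 176 genes were called, and 9 to 2830 with 1 mouse left out. Whether the simulated figures hold for libraries that differ this much was not tested. Alternatives were other fits, filters, pseudocounts, scalings and libraries left out.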

Additional observations from a re-analysis of the deposited data

How the results depend on the processing

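Across 18 other settings of the member fits (fit options, a filter, pseudocounts, scalings, voom and each mouse left out), *Cacna1h* stayed below 0 and the other 9 members above 0. Sizes changed more than signs. With quantile normalization the median of the members was 0.28, against 0.41 in the main fit. Then 3 members had an unadjusted p under 0.05 by limma, against 6 in the main fit. The number of members called was 1, and it became 5 with array weights, 0 without a variance trend and 0 at an FDR under 0.05. The fit with array weights called 24.5% of all genes and 10.2% as higher, against 1.22% called in the main fit. Leaving out 1 mouse gave 0 to 5 members called, with 5 without mutant 6 and 0 without any other mouse. The number of all genes called was 176 (80 higher and 96 lower), and it became 75 without a variance trend, 3549 with array weights, 101 with a filter at a mean log2 CPM of 1, and 25 at an FDR under 0.05. With 1 mouse left out it was 9 to 2830 (2830 without mutant 6). The other pathway genes had 0 called, with 14 under array weights (6 higher), 1 (*Cacng4*, lower) when libraries were scaled to the total of listed reads, and 0 to 11 with 1 mouse left out (11 without mutant 6). Exon length, GC content and total-read scaling were chosen after seeing the data. Scaling to total listed reads moved the median of all genes to −0.13 and that of the members to 0.30, and called 60 genes higher and 193 lower. *Cacna2d3* lost its call without a variance trend (FDR = 0.129) and without any mouse but mutant 6. Shares by longest transcript moved for most classes: *Cacna2d3* was 48.2% in mutants and 40.8% in controls. No paired analysis was possible because the genotypes share no replicate numbers. With 3 mice per genotype the intervals of *Cacna1c*, *Cacna1d*, *Cacna1g* and *Cacna1h* include 0 and also sizeable differences. Each member had at least 727 reads in each mouse.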
